A study of Homo sapiens with 4 samples.

Results

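The mitochondrial ribosomal protein genes were taken as all genes whose symbol starts with MRPL or MRPS followed by a digit. They numbered 76 of the 16708 genes listed in the deposited tables, 47 with a large subunit symbol (MRPL) and 29 with a small subunit symbol (MRPS). All 76 had a value in all 4 libraries, and all 76 passed the filter on low values (a mean of at least 0.5 RPKM, reads scaled to gene length and library total) that left 11829 genes for testing. The libraries were made from BEAS2B, a virus-transformed line of human bronchial epithelial cells. 2 libraries came from QKI-knockdown cells, which stably express an shRNA against *QKI*, an RNA-binding regulator of splicing, and 2 from control cells with an shRNA that targets luciferase. Both groups therefore carry a retroviral shRNA construct, and the knockdown rests on 1 shRNA. The sources do not say whether the replicates were grown as separate cultures, so p-values cover the spread among 4 libraries, and that spread may be technical. The comparison asks whether mRNA levels of these genes differed after depletion of QKI.

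Mitochondria carry ribosomes of their own, which translate the few respiratory chain subunits encoded by mitochondrial DNA. The rRNAs come from the mitochondrial genome, whereas all the ribosomal proteins are encoded in the nucleus, made in the cytosol and imported. The large subunit (39S) holds the peptidyl transferase center and the exit tunnel, and the small subunit (28S) binds the mRNA and decodes it. Part of the proteins descend from the bacterial ribosome and the others were added in mitochondria. Symbols do not always follow the subunit: MRPS18A and MRPS30 sit in the large subunit by structure, MRPS36 is also a component of the 2-oxoglutarate dehydrogenase complex, and *MRPL45P2* is a pseudogene of *MRPL45* whose reads may be shared with it. They are kept here under the subunit of their symbol.

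Promoters are shown first, because they hold a feature of these genes that their selection did not use. RefSeq promoter windows (GRCh38.p14, 250 bases before to 50 bases after the start) were found for 66 of the 76 genes, in 82 windows because some genes have several starts. Windows were searched on both strands for 3 motif cores: CCGGAAG of ETS factors, ATGGCGG of YY1 and GCGCATG of NRF1. The last 2 can overlap by the letters ATG, which happened in 0 of the 82 windows. The windows of 4 genes are printed with matches in capitals, CTTCCGG and CCGCCAT being the same cores on the other strand. They are those of *MRPL51* and *MRPS34*, which are the first in mean level in the large subunit and the second in the small one, of *MRPS18A*, the small subunit gene with the highest mean change after knockdown, and of *MRPL44*, the large subunit gene with the lowest.
MRPL51: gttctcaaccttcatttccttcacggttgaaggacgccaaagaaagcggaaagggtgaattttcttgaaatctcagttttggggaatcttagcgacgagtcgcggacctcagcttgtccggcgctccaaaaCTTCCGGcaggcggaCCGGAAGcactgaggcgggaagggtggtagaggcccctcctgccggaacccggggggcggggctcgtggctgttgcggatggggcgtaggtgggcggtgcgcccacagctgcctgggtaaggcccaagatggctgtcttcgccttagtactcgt
MRPS34: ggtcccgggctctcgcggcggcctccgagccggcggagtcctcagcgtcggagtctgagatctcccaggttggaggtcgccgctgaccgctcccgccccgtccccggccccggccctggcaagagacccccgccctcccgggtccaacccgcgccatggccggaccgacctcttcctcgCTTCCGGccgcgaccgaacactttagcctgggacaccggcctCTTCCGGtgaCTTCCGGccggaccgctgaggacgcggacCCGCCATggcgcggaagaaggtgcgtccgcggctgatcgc
MRPS18A: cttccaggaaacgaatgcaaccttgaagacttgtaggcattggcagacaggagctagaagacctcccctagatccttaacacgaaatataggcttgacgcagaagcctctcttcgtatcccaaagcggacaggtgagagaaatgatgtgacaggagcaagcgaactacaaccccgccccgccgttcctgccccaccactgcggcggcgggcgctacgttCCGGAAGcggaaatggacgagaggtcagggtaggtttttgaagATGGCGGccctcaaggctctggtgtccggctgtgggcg
MRPL44: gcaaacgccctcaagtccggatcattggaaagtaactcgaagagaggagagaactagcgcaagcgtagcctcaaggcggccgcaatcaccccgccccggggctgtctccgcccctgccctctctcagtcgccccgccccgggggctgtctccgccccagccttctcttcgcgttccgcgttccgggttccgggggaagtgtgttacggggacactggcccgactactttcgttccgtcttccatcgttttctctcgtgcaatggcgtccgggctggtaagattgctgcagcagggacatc
The *MRPL51* window (chr12:6493213-6493512, minus strand) held 2 ETS cores on opposite strands. The *MRPS34* window (chr16:1773085-1773384, minus strand) held 3 ETS cores before the start and 1 YY1 core after it. The *MRPS18A* window (chr6:43687742-43688041, minus strand) held 1 ETS core before the start and 1 YY1 core after it, and the *MRPL44* window (chr2:223957213-223957512, plus strand) held 0 of the 3 cores. Among all windows of mitochondrial ribosomal protein genes, 39.0% (32 of 82) held the ETS core, against 17.0% of the 12394 windows of tested genes and 10.3% of all 35116 windows. The YY1 core was in 29.3% (24 of 82), against 9.54% of the windows of tested genes and 5.55% of all windows. For the NRF1 core the shares were 8.54%, 6.75% and 4.43%. Windows of 1 gene can overlap, and only 8443 of the 11829 tested genes had a window. Counted by gene, the ETS core was in 43.9% of the 66 members and 22.9% of those 8443 genes. By gene the YY1 core was in 34.8% and 13.1%, and the NRF1 core in 10.6% and 9.11%. The YY1 core contains ATG, and in most of the members' windows that held it, such as that of *MRPS18A*, it lay after the start. Coding sequence was not set apart in the search. Either the ETS or the YY1 core was found in 59.8% of the members' windows, against 24.4% of those of tested genes and 14.6% of all. The 2 subunits were alike in this, with the ETS core in 36.7% of large subunit and 42.4% of small subunit windows and the YY1 core in 28.6% and 30.3%. A match is a run of letters and not a shown binding site. Whether cores went with changes after knockdown was not tested. The windows of *MRPS2*, with a mean log2 change of 0.21, held 0 of the 3 cores. That of *MRPS9*, with -0.09, held 1 YY1 core.

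Facts of the libraries that touch the values come next. The reads behind the RPKM values could be recovered as whole numbers for 100% of the values, which gave library totals of 20571555 and 34862008 for QKI-knockdown cells and 20052951 and 34706058 for control cells (replicates 1 and 2 in each). *QKI* itself was at 2.52 and 3.85 RPKM in QKI-knockdown cells and at 8.94 and 14.6 RPKM in control cells, a log2 difference of -1.72 (SE 0.38 in the fit without a block). Of the epithelial markers, *KRT8* and *KRT18* were between 91.5 and 248 RPKM in every library, whereas *EPCAM*, *KRT19* and *CDH1* were below 1 RPKM. Of the markers of other cells, 2 of 4 of fibroblasts, 1 of 3 of leukocytes, 0 of 3 of endothelium and 0 of 3 of ciliated or secretory cells reached the filter, and *PTPRC*, *VWF*, *CDH5* and *COL1A2* were near 0. *COL1A1* had 54.1 and 29.5 RPKM in QKI-knockdown and 51.5 and 18.7 RPKM in control cells (log2 differences of 0.07 and 0.65 in numbers 1 and 2), *PDGFRB* had 7.38 and 11.76 RPKM in QKI-knockdown and 7.11 and 10.3 RPKM in control cells (0.05 and 0.19), and *CD68* had 14.7 and 12.2 RPKM in QKI-knockdown and 17.3 and 16.1 RPKM in control cells (-0.23 and -0.39). The groups overlapped in the first pair and not in *CD68*, and with the replicate block limma gave adjusted p of 0.127 for *COL1A1* and 0.373 for *CD68*. Some of these differences were larger than those of the subunits given below, and their part in the results was not tested. The libraries separated by replicate number and not by knockdown: the first principal component of the tested genes, which splits number 1 from number 2, held 93.9% of the variance. The authors made sequencing runs at different read lengths, and the sources do not tie a number to a length. QKI-knockdown and control were therefore compared within each number, and the numbers were also fitted as a block.

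Levels were spread over about the same range in both subunits. Large subunit genes had a median of 17.2 mean RPKM over the 4 libraries, with 20 of 47 above 20 RPKM and 7 below 10, and small subunit genes a median of 15.5, with 9 of 29 above 20 and 6 below 10. The median of all tested genes was 7.93. The fewest reads behind a value were 8, in *MRPL45P2*, and apart from that gene the fewest were 148, in *MRPS36*.

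In the large subunit *MRPL51*, a protein added in mitochondria, was the most abundant, with 109 and 98.3 RPKM in QKI-knockdown cells and 99.7 and 86.6 RPKM in control cells. It was followed by *MRPL14*, a core protein with a bacterial relative, at 66.0 and 49.9 RPKM in QKI-knockdown and 64.4 and 42.9 RPKM in control cells. Both were a little higher in knockdown cells within each number, and in both genes replicate 1 was above replicate 2. *MRPL33*, a small protein with a bacterial relative, had 27.9 and 72.5 RPKM in QKI-knockdown and 26.8 and 76.6 RPKM in control cells, so that its level went with the replicate number and hardly with the knockdown. *MRPL37* had 53.9 and 40.5 RPKM in QKI-knockdown and 54.8 and 35.0 RPKM in control cells. *MRPL54* had 57.4 and 29.0 RPKM in QKI-knockdown and 54.6 and 24.4 RPKM in control cells. The lowest library of *MRPL51* (86.6 RPKM) was above the highest library of the other 4 genes, whose ranges overlapped one another through the replicate numbers.

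The small subunit had no such single leader. *MRPS24*, which corresponds to a core protein of bacteria, had 71.0 and 50.2 RPKM in QKI-knockdown and 86.0 and 46.7 RPKM in control cells. *MRPS34*, a protein added in mitochondria, had 86.1 and 40.5 RPKM in QKI-knockdown and 88.0 and 34.8 RPKM in control cells. The groups overlapped in both genes, and control replicate 1 was the highest library in each. *MRPS26* had 72.4 and 29.9 RPKM in QKI-knockdown and 75.7 and 26.7 RPKM in control cells. *MRPS23* had 59.1 and 47.4 RPKM in QKI-knockdown and 59.3 and 46.0 RPKM in control cells. *MRPS7*, which in bacteria helps to start assembly of the small subunit head, had 56.0 and 43.0 RPKM in QKI-knockdown and 52.2 and 38.0 RPKM in control cells. The 5 genes overlapped one another through their replicate numbers. At the low end stood *MRPS30*, with 1.87 and 2.22 RPKM in QKI-knockdown and 1.42 and 2.45 RPKM in control cells.

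**Figure D1:**
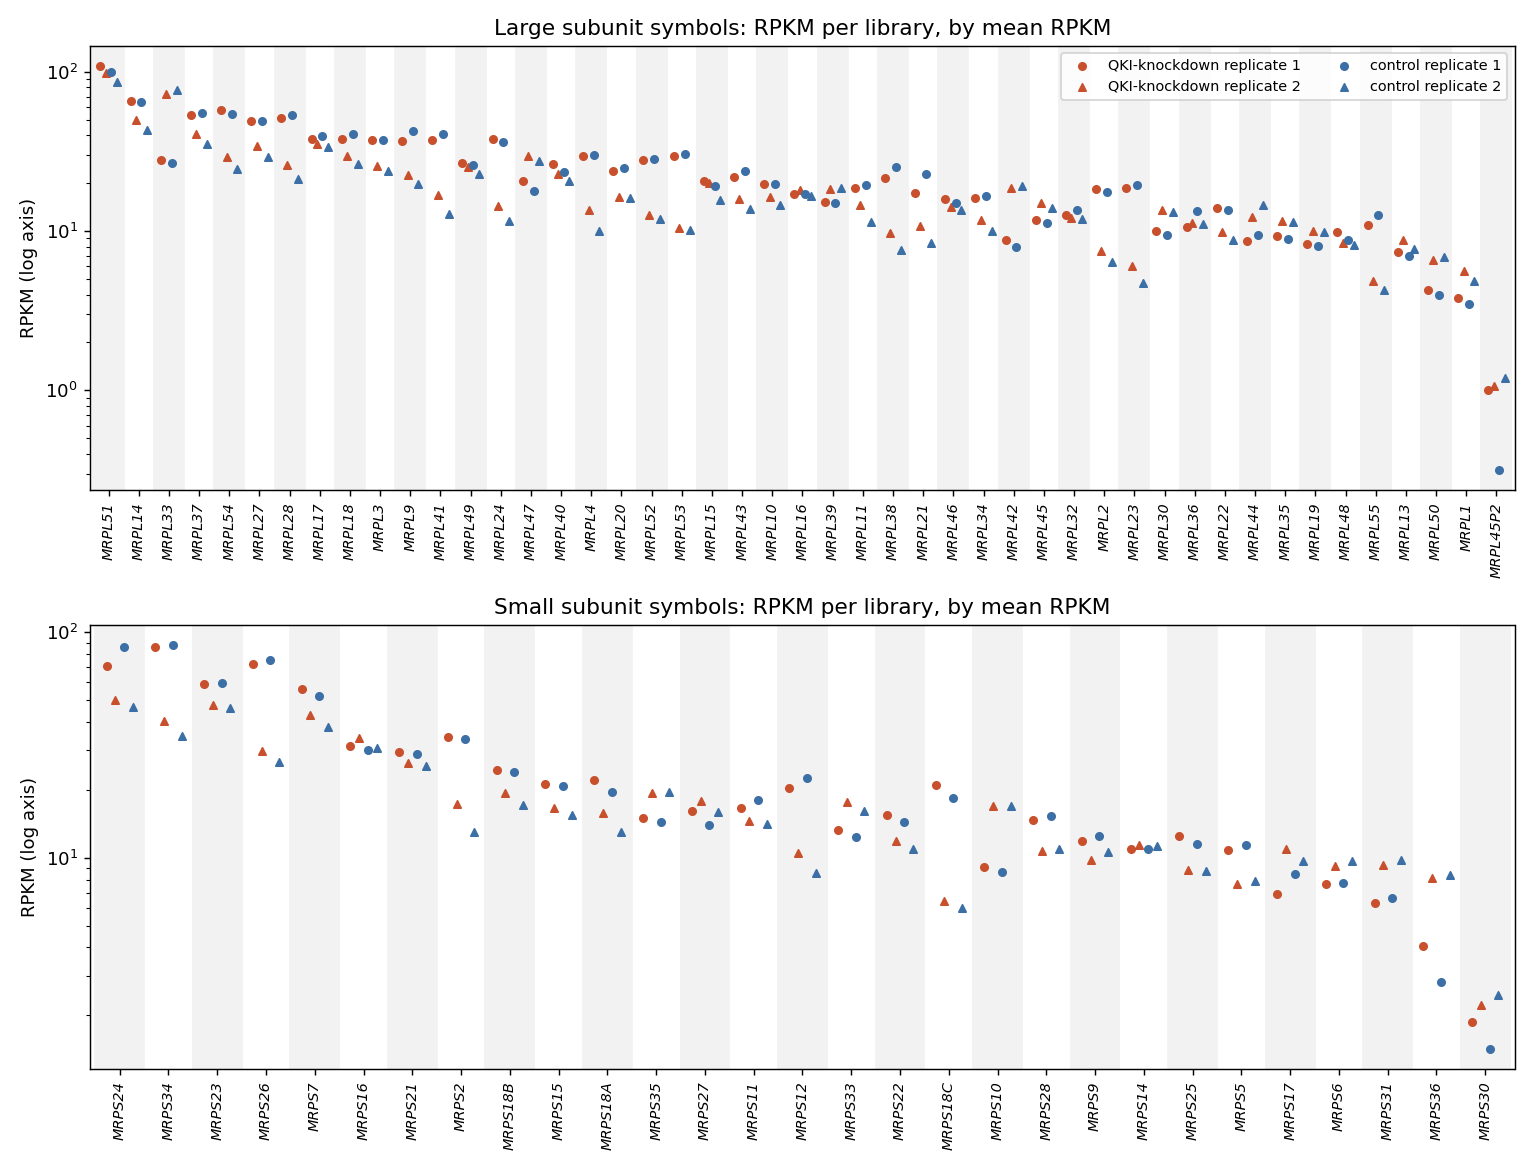
RPKM of each large subunit gene (top) and small subunit gene (bottom) in the 4 libraries, on a log axis and ordered by mean RPKM; color gives the group (QKI-knockdown or control) and shape the replicate number. Points of 1 number mostly lie close together whatever the group, but not those of *MRPL45P2* in number 1. *MRPL45P2* and *MRPS30* are the lowest of their subunits.

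Summed over the large subunit, RPKM were 1176 in QKI-knockdown and 1184 in control cells in number 1 (ratio 0.993), and 938.7 in QKI-knockdown and 852.4 in control cells in number 2 (ratio 1.1). For the small subunit the sums were 722.2 and 729.9 in number 1 (ratio 0.989) and 543.4 and 504.7 in number 2 (ratio 1.08), again with QKI-knockdown cells given before control cells. Both subunits were thus nearly level in number 1 and 1.08 to 1.1 times as high in knockdown cells in number 2. Over all tested genes the sums, in the same order, were 225300 and 230700 in number 1 and 194800 and 187200 in number 2. The 76 genes together took 0.841% and 0.759% of all RPKM in QKI-knockdown and 0.828% and 0.723% in control cells. In bulk RNA, fewer cells of a type and less RNA per cell cannot be told apart.

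Gene by gene, differences are given as log2(RPKM + 0.5) of QKI-knockdown minus control, which understates those of low genes. In number 1 the median of the large subunit was 0.00, with 26 genes higher and 21 lower in QKI-knockdown cells, and in number 2 it was 0.15, with 41 higher and 6 lower. The small subunit had a median of 0.03 in number 1 (17 higher, 12 lower) and of 0.09 in number 2 (20 higher, 9 lower). Over all tested genes the medians were 0.02 and 0.05, and 54.5% of genes in number 1 and 60.6% in number 2 were higher in QKI-knockdown cells. Of the 4 medians of the subunits, that of the large subunit in number 2 was the farthest from the value of all genes. On this scale 0 of the 76 genes were more than 1 from 0 in either number, beside 0.101% of tested genes in number 1 and 0.211% in number 2. In RPKM themselves *MRPL45P2* was over 2-fold apart in number 1, at 3.17 times its control level on few reads, and no other of the 76 was in either number. In number 1, 44 of 47 large and 25 of 29 small subunit genes were within 0.25 of 0, beside 82.7% of tested genes, and in number 2, 38 of 47 and 26 of 29 were, beside 81.4%.

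21 large and 13 small subunit genes were higher in QKI-knockdown cells in both numbers, 34 of 76 in all, beside 31.7% of all tested genes. 1 large subunit gene (*MRPL44*) and 5 small subunit genes (*MRPS9*, *MRPS31*, *MRPS5*, *MRPS6*, *MRPS28*) were lower in both, beside 16.6% of all tested genes. After the differences of each number were centred on their median over all tested genes, 14 large and 11 small subunit genes were higher in both and 6 large and 8 small were lower in both, beside 23.3% of all tested genes in either direction. Without centring, 25 large and 11 small subunit genes differed in opposite directions in the 2 numbers, beside 6114 of the 11829 tested genes. Of the 25, 20 were lower in number 1 and higher in number 2, beside 3414 of the 6114. The groups did not overlap in 4 genes, all higher in QKI-knockdown cells, beside 5.71% of tested genes, and 0 genes were apart in the lower direction, beside 2.89%. The 4 were *MRPL15*, *MRPL16*, *MRPS16* and *MRPS27*.

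**Figure D2:**
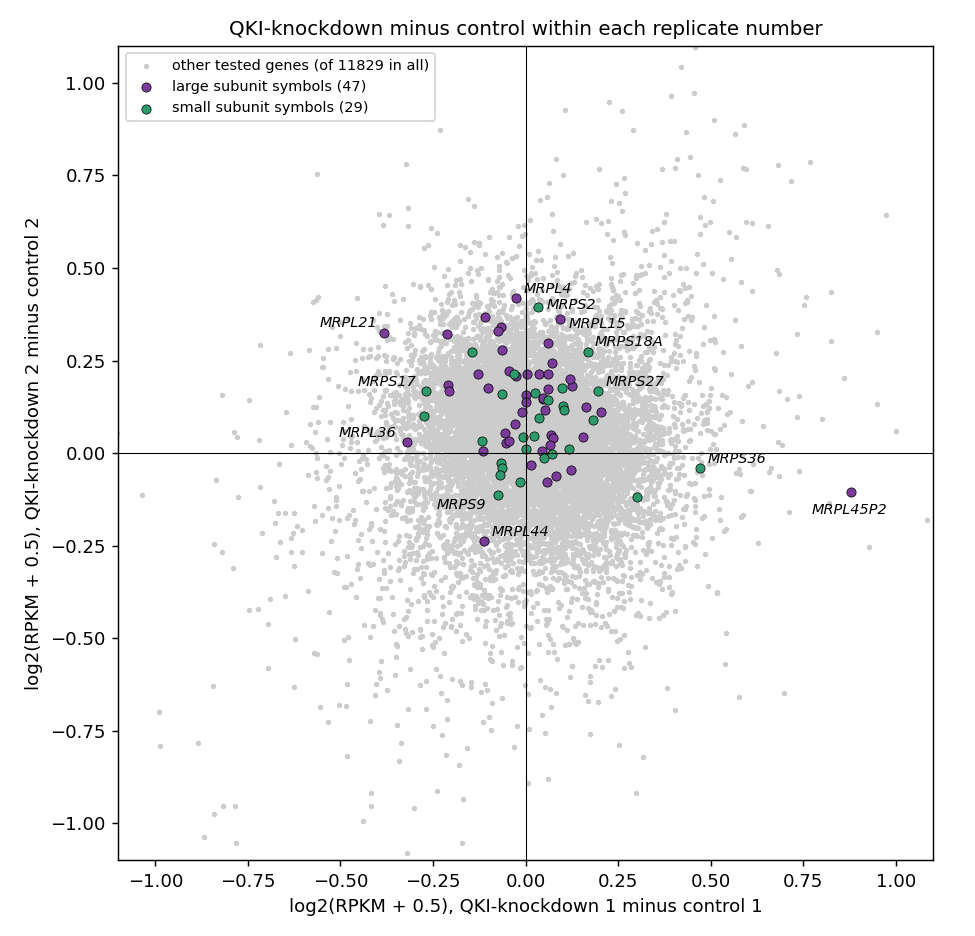
Difference in log2(RPKM + 0.5), QKI-knockdown minus control, in replicate number 1 (x axis) and number 2 (y axis) for large subunit genes, small subunit genes and the other tested genes (gray; 22 tested genes lie beyond the axes). Most large subunit genes are above 0 on the y axis (41 of 47) but are split on the x axis (26 of 47), and *MRPL45P2* stands apart in number 1.

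Among large subunit genes that were higher in both numbers, *MRPL15*, a core protein with a bacterial relative, had the highest mean difference. It had 20.5 and 20.2 RPKM in QKI-knockdown and 19.3 and 15.6 RPKM in control cells, and both knockdown libraries were above both control libraries. Its mean log2 difference was 0.23 (SE 0.26 without the replicate block and 0.12 with it). Here and for the genes below, the SE with the block comes largely from a trend over all genes. It is not a measure of the gene's own spread between numbers. *MRPL24*, whose bacterial relative lies by the exit of the tunnel, had 37.9 and 14.4 RPKM in QKI-knockdown and 36.3 and 11.6 RPKM in control cells. *MRPL1*, of the stalk at the tRNA exit side, had 3.81 and 5.64 RPKM in QKI-knockdown and 3.47 and 4.85 RPKM in control cells. *MRPL24* was high in number 1 and *MRPL1* in number 2, so the groups overlapped in both, with mean log2 differences of 0.18 and 0.16. *MRPL47* had 20.7 and 29.8 RPKM in QKI-knockdown and 17.9 and 27.6 RPKM in control cells, a mean log2 difference of 0.16. *MRPL54*, given above, also had a mean log2 difference of 0.16. *MRPL16*, which lies near the peptidyl transferase center, did not overlap between groups (17.0 and 18.2 RPKM in QKI-knockdown, 16.99 and 16.5 RPKM in control cells) although its libraries of number 1 were equal within 0.001 on the log2 scale.

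*MRPL44*, a protein related to RNase III enzymes, was the large subunit gene that was lower in both numbers. It had 8.70 and 12.3 RPKM in QKI-knockdown and 9.44 and 14.6 RPKM in control cells. The groups overlapped because number 2 was higher than number 1. Its mean log2 difference was -0.18 (SE 0.35 without the replicate block and 0.12 with it). The next genes in order of mean difference with the same sign in both numbers were slightly above 0: *MRPL19* at 0.02, *MRPL35* at 0.04, *MRPL46* at 0.06 and *MRPL30* at 0.06. *MRPL32*, a protein matured by the m-AAA protease before it joins the ribosome, had 12.6 and 12.01 RPKM in QKI-knockdown and 13.7 and 11.96 RPKM in control cells. Its log2 difference was -0.12 in number 1 and 0.01 in number 2.

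Opposite signs were widest in *MRPL45P2* and *MRPL21*. The pseudogene had 1.00 and 1.07 RPKM in QKI-knockdown and 0.317 and 1.19 RPKM in control cells, which rest on 26 and 47 reads in QKI-knockdown and 8 and 52 reads in control cells. Its log2 difference was 0.88 in number 1 and -0.11 in number 2, and control replicate 1 was the library that stood low. Its parent *MRPL45*, which anchors the ribosome to the inner membrane, had 11.7 and 15.1 RPKM in QKI-knockdown and 11.3 and 13.9 RPKM in control cells, with log2 differences of 0.05 and 0.12. *MRPL21*, with a bacterial relative, had 17.3 and 10.7 RPKM in QKI-knockdown and 22.7 and 8.46 RPKM in control cells, differences of -0.38 in number 1 and 0.33 in number 2. The control libraries of *MRPL21* bracketed the knockdown libraries.

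Among small subunit genes *MRPS18A* had the highest mean difference of those higher in both numbers. It had 22.1 and 15.7 RPKM in QKI-knockdown and 19.6 and 12.9 RPKM in control cells. Its mean log2 difference was 0.22 (SE 0.35 without the replicate block and 0.12 with it). Its homologs *MRPS18B* and *MRPS18C*, each of which occupies a site of its own in the ribosome, were also higher in both numbers. *MRPS18B* had 24.5 and 19.3 RPKM in QKI-knockdown and 24.0 and 17.2 RPKM in control cells (0.09). *MRPS18C* had 21.0 and 6.42 RPKM in QKI-knockdown and 18.5 and 6.002 RPKM in control cells (0.14). In all 3 genes number 1 was above number 2, and the groups overlapped. *MRPS2*, with a bacterial relative, had 34.3 and 17.2 RPKM in QKI-knockdown and 33.5 and 13.0 RPKM in control cells, with log2 differences of 0.03 and 0.39. *MRPS27*, a pentatricopeptide repeat protein that binds RNA, had 16.1 and 17.9 RPKM in QKI-knockdown and 14.0 and 15.9 RPKM in control cells, with log2 differences of 0.20 and 0.17. It was the most even of these between numbers, and the groups did not overlap. Nor did they in *MRPS16*, with 31.4 and 33.8 RPKM in QKI-knockdown and 30.1 and 30.6 RPKM in control cells (mean log2 difference 0.10).

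The 5 small subunit genes lower in both numbers differed little. *MRPS9*, the lowest, had 11.9 and 9.81 RPKM in QKI-knockdown and 12.5 and 10.7 RPKM in control cells. Its mean log2 difference was -0.09 (SE 0.27 without the replicate block and 0.12 with it). *MRPS31*, *MRPS5*, *MRPS6* and *MRPS28* had mean log2 differences of -0.06, -0.05, -0.05 and -0.05. *MRPS6* overlaps *SLC5A3* on the same strand of chromosome 21 (hg19, 35445524 to 35515334), and reads of the pair cannot be fully told apart. Opposite signs were widest in *MRPS36*, with 4.08 and 8.13 RPKM in QKI-knockdown and 2.80 and 8.37 RPKM in control cells (0.47 and -0.04), and in *MRPS17*, with 6.91 and 10.9 RPKM in QKI-knockdown and 8.43 and 9.65 RPKM in control cells (-0.27 and 0.17). *MRPS24* was likewise -0.28 in number 1 and 0.10 in number 2.

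Counting error was read from the recovered reads. Over genes these sum to between 1.35 and 1.53 times the library totals. In some genes the length that the RPKM values imply was longer than the whole annotated gene. It was 10659 bases in *MRPL55* (hg19, 228294380 to 228297013) and 3548 in *MRPL51* (6601052 to 6603007). Bases of such genes thus appear to have been counted more than once in that length. If reads were likewise counted more than once within a gene, which was not tested directly, the intervals are too narrow. The 95% intervals of the ratio of recovered reads (Clopper-Pearson, counting error only, since PCR copies are not separate molecules) excluded 0 on the log2 scale for 6 large and 7 small subunit genes above and 9 large and 2 small below in number 1, beside 27.6% of tested genes above and 21% below. In number 2 they did so for 29 large and 14 small subunit genes above, beside 37.2% of tested genes, and for 2 large and 0 small below, beside 21.4%. In both numbers the interval lay above 0 for 3 large subunit genes (*MRPL51*, *MRPL47*, *MRPL40*) and 3 small subunit genes (*MRPS18A*, *MRPS27*, *MRPS22*), beside 10.6% of tested genes, and below 0 in both for 0 genes, beside 4.33%. *MRPL40* had 26.3 and 22.7 RPKM in QKI-knockdown and 23.4 and 20.8 RPKM in control cells. *MRPS22* had 15.5 and 11.9 RPKM in QKI-knockdown and 14.4 and 10.9 RPKM in control cells. The groups overlapped in both, and such intervals say nothing of the spread between cultures.

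In the test over replicates no mitochondrial ribosomal protein gene was called. limma without a block called 0 of 11829 genes at an adjusted p under 0.05 (0%), with 4 genes higher and 9 lower at an unadjusted p under 0.05, none of them among the 76. *QKI* was not called in that fit either (adjusted p = 1), against an adjusted p of 3.16e-33 in limma with the replicate block. With the block, limma called 58 genes higher (0.49%) and 43 lower (0.364%), again 0 of the 76, and the smallest adjusted p was 0.479 in the large subunit, that of *MRPL45P2*, and 0.88 in the small subunit. The fitted log2 differences had a median of 0.08 in the large subunit and 0.06 in the small one, beside 0.03 for all tested genes, and were above 0 in 36 of 47 and 21 of 29 genes. The median SE of the 76 genes was 0.34 without the block and 0.12 with it. With the block 1 large subunit gene, *MRPL45P2*, and 0 small subunit genes had an unadjusted p under 0.05. limma draws each SE toward a trend over all genes, and with the block the SE followed a gene's own spread little. *MRPL45P2*, with differences of 0.88 and -0.11 in numbers 1 and 2, had 0.162, and *MRPS9*, with -0.07 and -0.11, had 0.124. The p-values with the block, that of *QKI* among them, therefore rest largely on spread shared over genes. A missed threshold does not show that the levels were equal.

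Proteins with a bacterial relative and those without one were also compared as a description. The 28 large subunit genes with a relative had median differences of 0.00 and 0.18 in numbers 1 and 2, and the 18 without had 0.03 and 0.12. In number 2, 27 of the 28 and 14 of the 18 were higher in QKI-knockdown cells. The 18 small subunit genes with a relative had medians of 0.01 and 0.09, and the 11 without had 0.10 and 0.04. The order of the classes was thus not the same in the 2 numbers.

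The replicate numbers differed more than the groups: over all tested genes number 2 minus number 1 had an SD of 0.66 in QKI-knockdown and 0.81 in control cells, beside 0.20 and 0.21 for QKI-knockdown minus control in numbers 1 and 2. Number 2 minus number 1, in log2(RPKM + 0.5), had a median of -0.27 in QKI-knockdown and -0.42 in control cells for the large subunit, and of -0.31 and -0.36 for the small one, whereas over all tested genes both medians were 0.00. On this scale 9 large and 3 small subunit genes were over 2-fold lower in number 2 in QKI-knockdown cells, beside 6.67% of tested genes, and 13 large and 5 small in control cells, beside 12.5%. 2 large and 0 small subunit genes were over 2-fold higher in QKI-knockdown cells (5.27% of tested genes), and 3 large and 1 small in control cells (9.27%). The lowest member in this difference was *MRPS18C* in QKI-knockdown cells (-1.64) and *MRPL23*, whose protein lies by the exit of the tunnel, in control cells (-1.95). *MRPL23* had 6.03 against 18.6 RPKM in QKI-knockdown cells and 4.70 against 19.6 RPKM in control cells, in number 2 against number 1. *MRPL33* and *MRPL42* were the large subunit genes over 2-fold higher in number 2 in both groups. Across the 76 genes the differences in the 2 groups had a Pearson correlation of 0.965, beside 0.953 over all tested genes. The points share their libraries. In 9 large and 3 small subunit genes the number 2 level was over 2-fold lower in both groups.

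**Figure D3:**
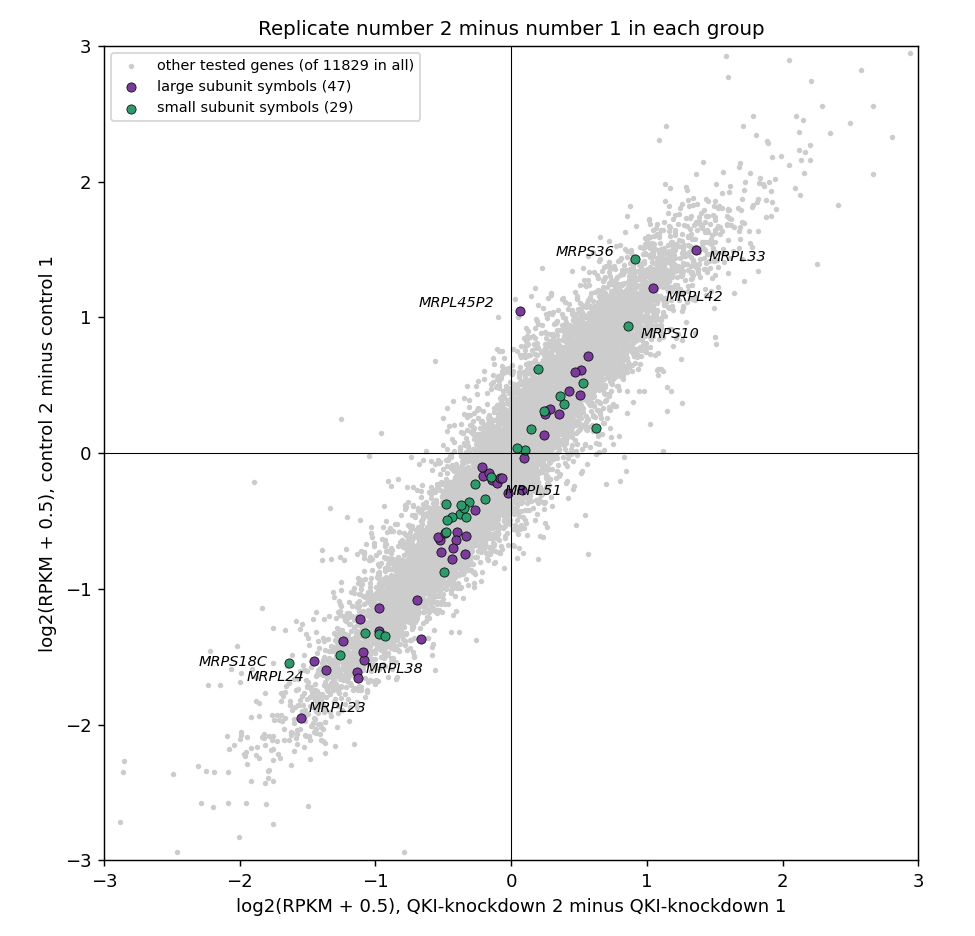
Difference in log2(RPKM + 0.5), replicate number 2 minus number 1, in QKI-knockdown cells (x axis) and control cells (y axis), for large subunit genes, small subunit genes and the other tested genes (gray; 14 lie beyond the axes). The points run along the diagonal from *MRPL23* at the lower left to *MRPL33* at the upper right, and *MRPL45P2* lies off it.

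The genes that work with the mitochondrial ribosome were read in the same way. The 7 mitoribosomal proteins with other names had medians of -0.11 in number 1 (2 of 7 higher) and 0.18 in number 2 (7 of 7 higher). *ICT1*, a peptidyl-tRNA hydrolase built into the large subunit, had the highest mean difference, with 40.8 and 22.4 RPKM in QKI-knockdown and 41.9 and 18.8 RPKM in control cells. *CHCHD1* of the small subunit had the lowest, with 21.4 and 19.7 RPKM in QKI-knockdown and 23.8 and 19.0 RPKM in control cells. Neither kept the same sign in both numbers. The 11 translation factors had medians of 0.16 and 0.05. Of these, *MRRF*, the ribosome recycling factor, had 8.45 and 7.01 RPKM in QKI-knockdown and 7.10 and 5.997 RPKM in control cells, a mean log2 difference of 0.22. *MTIF3*, an initiation factor, had 7.12 and 8.05 RPKM in QKI-knockdown and 6.35 and 9.77 RPKM in control cells, a mean of -0.06. *MRRF* was higher in QKI-knockdown cells in both numbers and *MTIF3* only in number 1.

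Of 20 assembly factors 19 were tested, with medians of -0.02 in number 1 and 0.10 in number 2 (17 of 19 higher). *RPUSD4*, a pseudouridine synthase, had 6.98 and 5.53 RPKM in QKI-knockdown and 6.30 and 4.68 RPKM in control cells, a mean log2 difference of 0.18. *TFB1M*, which dimethylates the small subunit rRNA, had 3.84 and 3.74 RPKM in QKI-knockdown and 4.64 and 3.62 RPKM in control cells, a mean of -0.10. The first was higher in both numbers and the second differed in sign. limma called 0 genes of these 3 lists in either direction, with or without the block.

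**Figure D4:**
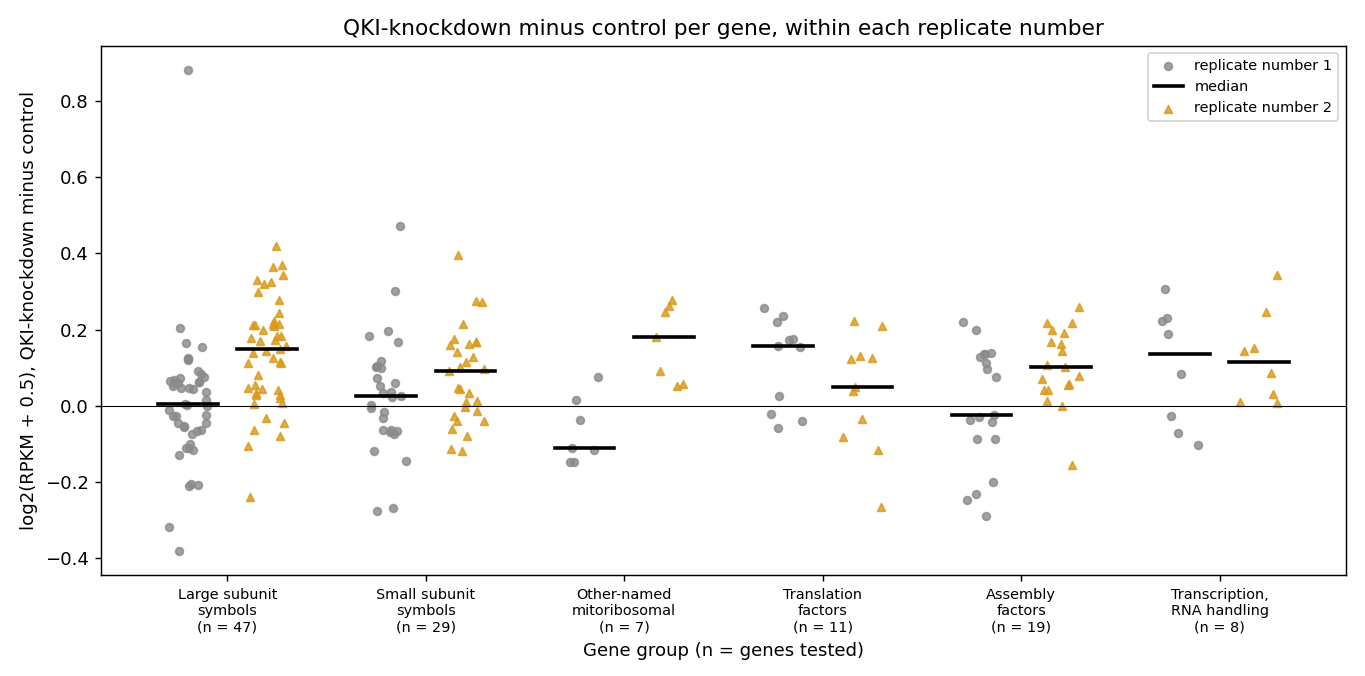
Difference in log2(RPKM + 0.5), QKI-knockdown minus control, of each gene in replicate number 1 (circles) and number 2 (triangles) for the 2 subunits and 4 lists of related genes; bars are medians. The large subunit lies around 0.00 in number 1 and 0.15 in number 2, and the ranges of all 6 groups span 0 in at least 1 number.

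Position in the genome limits a part of these values. 32 of the 76 genes overlap another listed gene in the annotation lifted to hg19, among them *MRPL46* and *MRPS11*, which overlap each other on opposite strands of chromosome 15 (89002732 to 89089816 and 89010684 to 89024007). *MRPL46* had 15.9 and 14.1 RPKM in QKI-knockdown and 15.1 and 13.6 RPKM in control cells, and *MRPS11* had 16.6 and 14.5 RPKM in QKI-knockdown and 18.1 and 14.2 RPKM in control cells. Whether counting used strand is not stated in what was read here, so reads of such pairs cannot be assigned with certainty. The gene length that the RPKM values imply was, at the median of the members, 1.38 times that of all annotated exons joined, between 0.142 times in *MRPS23* and 5.65 times in *MRPL55*, beside 1.25 times for all genes, so that levels set across genes depend on that length while differences between groups do not.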

How the data were processed

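mRNA was measured by single-end RNA-Seq in 2 libraries of QKI-knockdown and 2 of control BEAS2B cells. The authors used Bowtie, of unstated version, for alignment to hg19 and to exon junctions of Ensembl protein-coding genes, dropped ambiguous alignments, and deposited RPKM per gene, 1 table per library. A gene absent from a table was set to 0. The reads behind each RPKM were recovered with a relative tolerance of 1e-11 (100% whole), and over genes they sum to between 1.35 and 1.53 times the recovered library totals. Genes averaging 0.5 RPKM or more were tested on log2(RPKM + 0.5) with limma 3.58.1 (R 4.3.3, mean-variance trend, two-sided, Benjamini-Hochberg adjusted p under 0.05 over all tested genes), without a block, and as alternatives with the replicate number as a block or with voom on the recovered reads. The fits were tested on simulated data. Positions are from the GENCODE annotation lifted to hg19 (74 of 76 genes matched by identifier) and promoters from RefSeq. Python 3.11.15 with numpy 2.4.6, pandas 2.3.3, scipy 1.17.1 and matplotlib 3.10.9 was used.

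The members and gene lists were chosen with earlier results of these data known. The genes named are *QKI*, in each subunit the 5 highest in level, the 5 highest and 5 lowest in mean difference among those with 1 sign in both numbers, the 2 with opposite signs farthest apart, homologs whose symbols differ by a final letter, *MRPL32*, *MRPL33* and *MRPL51*, and the highest and lowest gene of each list. *MRPL16*, *MRPL23*, *MRPL40*, *MRPL42*, *MRPL45*, *MRPL55*, *MRPS11*, *MRPS16*, *MRPS22*, *MRPS30* and, in the closing section, *TFAM* and *POLRMT* were named after their values were seen. Same-numbered libraries deviated together across genes (correlation 0.953), but no shared culture or day is given for a number.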

Additional observations from a re-analysis of the deposited data

How the results depend on the processing

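Depth is lowest for *MRPL45P2*, with 8 reads behind 1 value. The libraries paired by the replicate block share only a number. With the replicate block 101 of all tested genes were called, 114 with the replicate block and median centring and 50 with voom on recovered reads and the replicate block, against 0 without it. The log2 difference of *QKI* was -1.72, -1.75 and -1.89 in these 3 fits, each past the threshold. Pseudocounts of 0.1 and 1, no filter, a mean of at least 5 RPKM and voom without the block called 0 genes. Mitochondrial ribosomal protein genes were called in none of these settings. Leaving out 1 library at a time called between 0 and 4 of all genes and 0 of the 76, and the lone library left in a group was then assumed to vary like the other group. The median log2 difference then ranged from -0.16 to 0.30 in the large subunit and from -0.088 to 0.19 in the small one. It was below 0 without control replicate 2 (-0.16 and -0.088) and without QKI-knockdown replicate 1 (-0.076 and -0.072), and above 0 without control replicate 1 (0.30 and 0.19) and without QKI-knockdown replicate 2 (0.25 and 0.16). By construction these fits set libraries of different numbers against each other. Leaving out *MRPL45P2* gave a large subunit median of 0.07. After median centring within each number, 6 large and 8 small subunit genes were lower in both numbers, against 1 and 5, and 14 and 11 were higher in both, against 21 and 13. These settings, and the same counts at other pseudocounts, were chosen after seeing the data.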

Other observations

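Genes of mitochondrial transcription and RNA handling, which make and process the rRNAs and mRNAs that the mitochondrial ribosome uses, are described here as values only. Of 10 in the list 8 were tested, with median log2 differences, QKI-knockdown minus control, of 0.14 in number 1 (5 of 8 higher) and 0.11 in number 2 (8 of 8 higher). *TFB2M*, the factor that melts mitochondrial promoters, had 8.79 and 7.62 RPKM in QKI-knockdown and 7.47 and 6.35 RPKM in control cells, a mean log2 difference of 0.23. *TFAM*, which packs mitochondrial DNA, had 15.4 and 24.7 RPKM in QKI-knockdown and 12.4 and 23.3 RPKM in control cells. Both were higher in QKI-knockdown cells in both numbers, and the groups overlapped in *TFAM* and not in *TFB2M*. *ELAC2*, which cuts the 3' ends of tRNAs, had the lowest mean difference, 0.02, with 23.0 and 11.1 RPKM in QKI-knockdown and 24.8 and 9.89 RPKM in control cells. *POLRMT*, the mitochondrial RNA polymerase, had 8.16 and 2.75 RPKM in QKI-knockdown and 8.32 and 2.06 RPKM in control cells, so that its level, like that of *MRPL23*, went mainly with the replicate number. limma called 0 of the 8 with or without the block.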
